A study of Mus musculus with 5 samples.

Results

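In embryonic mouse hindlimb muscle at E14.5, 9522 stretches of open chromatin were called as peaks and overlapped no peak called in the other 4 libraries of the series. They are 9522 of the 65624 peaks of the E14.5 library, and of 366900 peak rows over all 5 libraries. They were selected on measured values, the peak calls and the E14.5 counts: a member had no base pair in common with any peak of the fetal (E18.5), neonatal (P5), adult or Cacna1s KO libraries, and held at least 20 counts over the E14.5 nuclei of 400 to 25000 RNA molecules (unique molecular identifiers, UMIs). Each library paired nuclear RNA with transposase-accessible chromatin (ATAC) from the same nuclei (snRNA-seq and snATAC-seq, 10x Multiome) of dissected C57BL/6N hindlimb muscle. The groups were WT E14.5 (56 hindlimbs pooled), Cacna1s KO E18.5 (26 hindlimbs, Cacna1s-/-, the coding region of the voltage-sensing calcium channel deleted in every cell, so that the muscle does not contract), WT E18.5 (14 hindlimbs), WT P5 (8 hindlimbs) and WT adult (4 hindlimbs, 8 weeks, both sexes). Every library mixed sorted PCM1-positive nuclei, mostly from myofibers, with PCM1-negative nuclei in equal volumes, which sets the balance of cell types. With 1 library per group there is no biological replicate, no test was run between groups, and all intervals are 95% intervals that cover counting error only.

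Open chromatin marks promoters, where transcription starts, and distal elements such as enhancers, which act on genes from a distance and differ most between cell types and stages. Skeletal myofibers form by fusion of myoblasts. Their nuclei (myonuclei) leave the cell cycle and read a muscle program through myogenic factors such as MyoD and myogenin, which bind E-boxes, together with MEF2 and TEAD factors. At E14.5 the first generation of limb fibers is present and fetal fibers are forming around it, while connective tissue, tendon and cartilage anlagen are laid down between and beside the muscles. In myonuclei of the E14.5 library the 11 fixed myonuclear markers summed to 32770 CPM (each UMI sum divided by all UMIs of the same nuclei, times 1e6), against 2489 CPM in its other nuclei, and all 11 were detected. The 11 include Ttn, Neb, Trdn and Ryr1, whose share of UMIs also set which nuclei counted as myonuclei. Part of this contrast is therefore fixed by the split.

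Sequence is shown for 6 members: the Myh7 start, intronic or distal members near Kif26b, Fstl4 and Slit2 whose counts came mostly from myonuclei, and distal members near Bmp2 and Shox2 whose counts came mostly from other nuclei. Each is the central 300 bases of the peak on the plus strand of GRCm38 (mm10), read 5′ to 3′. Capitals mark CAGCTG (the E-box preferred by myogenic factors), CATATG (a Twist-type E-box), GGAATG or its reverse complement CATTCC (TEAD) and CTATTTATA or CTAAAAATA in either orientation (MEF2).
Myh7, chr14:54994626-54994925: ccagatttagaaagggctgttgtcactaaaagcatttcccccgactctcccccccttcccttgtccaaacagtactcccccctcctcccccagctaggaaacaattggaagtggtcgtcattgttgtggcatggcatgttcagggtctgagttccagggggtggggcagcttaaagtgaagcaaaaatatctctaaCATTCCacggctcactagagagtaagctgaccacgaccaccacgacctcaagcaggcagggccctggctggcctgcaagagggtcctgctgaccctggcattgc
Kif26b, chr1:178791472-178791771: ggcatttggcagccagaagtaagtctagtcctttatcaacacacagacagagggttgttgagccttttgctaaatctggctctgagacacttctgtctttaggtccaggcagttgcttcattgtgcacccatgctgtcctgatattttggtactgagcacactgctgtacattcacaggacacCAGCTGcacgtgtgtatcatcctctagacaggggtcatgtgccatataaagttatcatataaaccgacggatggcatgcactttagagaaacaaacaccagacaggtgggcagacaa
Fstl4, chr11:52647412-52647711: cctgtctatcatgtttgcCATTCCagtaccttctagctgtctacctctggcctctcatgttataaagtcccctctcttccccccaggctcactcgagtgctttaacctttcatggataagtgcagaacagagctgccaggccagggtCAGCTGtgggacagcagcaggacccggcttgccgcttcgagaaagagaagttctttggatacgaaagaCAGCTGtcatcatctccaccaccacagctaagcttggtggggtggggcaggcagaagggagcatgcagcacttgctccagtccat
Slit2, chr5:47299657-47299956: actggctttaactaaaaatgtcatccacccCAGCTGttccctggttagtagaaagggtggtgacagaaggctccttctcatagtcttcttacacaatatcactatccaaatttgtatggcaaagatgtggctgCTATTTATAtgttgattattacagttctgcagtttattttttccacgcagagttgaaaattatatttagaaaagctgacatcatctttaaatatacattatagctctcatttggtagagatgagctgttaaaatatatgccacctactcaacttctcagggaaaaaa
Bmp2, chr2:133748517-133748816: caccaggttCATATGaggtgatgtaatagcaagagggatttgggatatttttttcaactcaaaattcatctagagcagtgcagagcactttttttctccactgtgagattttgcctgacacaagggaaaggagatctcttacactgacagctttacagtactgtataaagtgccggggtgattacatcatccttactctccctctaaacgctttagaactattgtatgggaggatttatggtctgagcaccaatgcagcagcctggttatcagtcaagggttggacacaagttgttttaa
Shox2, chr3:66744236-66744535: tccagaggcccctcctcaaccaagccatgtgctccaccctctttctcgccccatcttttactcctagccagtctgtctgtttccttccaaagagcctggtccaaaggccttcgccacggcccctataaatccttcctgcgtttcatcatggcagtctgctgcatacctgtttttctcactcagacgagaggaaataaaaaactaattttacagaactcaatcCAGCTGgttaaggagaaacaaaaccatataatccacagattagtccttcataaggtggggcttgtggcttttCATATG

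The Fstl4 window held 2 myogenic E-boxes and 1 TEAD match, and the Slit2 window 1 myogenic E-box and 1 MEF2 match. In the Kif26b window there was 1 myogenic E-box and in the Myh7 window 1 TEAD match. The Bmp2 window had 1 Twist-type E-box, and the Shox2 window 1 of each kind of E-box. These are matches of letters, not measured binding.

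Members were smaller in counts than other E14.5 peaks and farther from gene starts, and much of the difference in position went with size. Their counts had a median of 102 (quartiles 76 and 143, highest 930) in a median of 51 nuclei, against a median of 214 counts over the 56050 other E14.5 peaks of at least 20 counts. Width did not separate them: the median was 875 bp for members and 884 bp for other peaks. By annotated transcript starts, 11.2% of members lay within 1 kb of a start, 45.9% in introns, 3.67% in exons and 39.2% between genes. Of the other peaks, 34.8% lay within 1 kb of a start, 31.6% in introns, 3.29% in exons and 30.3% between genes. The median distance to the nearest gene row of the files was 22.7 kb for members and 8.26 kb for other peaks, and GC content of the central 300 bases averaged 47.3% and 54.3%. Among peaks of 80 to 160 counts, 9.87% of members and 14% of other peaks lay within 1 kb of a start, the median distances were 24.6 and 21.2 kb and GC content was 47.1% and 48.7%. Private peaks of the other libraries were placed much like members, with 10.5 to 12.6% within 1 kb of a start and median distances of 16.2 to 24.1 kb. On the autosomes, members made up between 12.6% (chromosome 11) and 16% (chromosome 5) of tested peaks, and on the X 12.3%.

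The rule leaves sharp edges. A further 34 E14.5 peaks overlapped no other peak but had 10 to 19 counts, 16 of them 17 to 19, while 30 members had 20 to 22. Another 92 peaks were left out for an overlap of at most 50 bp. A peak of another library lay within 500 bp of 1141 members (12%) and within 100 bp of 268, and the median member was 4628 bp from the nearest one. The highest count of all, 930, belonged to a member near the predicted gene Gm29994 that lay 1 bp from a peak of another library. A member is therefore a region without a call elsewhere, and accessibility of these regions in the other libraries was not analysed here, since each file counts reads only in its own peaks.

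The other libraries differed in depth and make-up. Kept nuclei numbered 3229 to 5117 per library, ATAC counts 23592784 to 48510096, UMIs 21394846 to 49913899 and called peaks 61874 to 91265. Over all listed barcodes the ATAC totals of E14.5 (23592784) and the KO (23714252) were the lowest, and over kept nuclei the KO had 13901057 and E14.5 22328626. The 4829 kept E14.5 nuclei included 1814 myonuclei, defined as nuclei with at least 1.5% of UMIs from Ttn, Neb, Trdn and Ryr1, genes of the sarcomere and of calcium release. Myonuclei made up 37.6% of kept nuclei at E14.5, 30.4% in the KO, 36.7% in WT E18.5, 47.1% in WT P5 and 86.7% in WT adult muscle. At E14.5, 530 nuclei had 1 to 2% of UMIs from these genes, near the limit. Barcodes shared between E14.5 and another library numbered 18 to 47.

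Members were weighted toward myonuclei. Of the 1128732 counts in members, 59.8% (59.66 to 59.91%) came from myonuclei, against 47.25% (47.22 to 47.28%) of the counts in other E14.5 peaks and 45.68% in the 31653 E14.5 peaks that overlapped a peak in each of the other 4 libraries. Per peak, the median myonuclear share was 60.4% (quartiles 41.0 and 73.7%) for members and 45.7% (37.4 and 58.0%) for other peaks. A peak was called skewed when its share of ATAC counts was at least 2-fold higher or lower in myonuclei than in other nuclei and the interval of that ratio excluded 1. Skewed to myonuclei were 3975 members (41.7%), where 21.7% of all tested E14.5 peaks were called and 18.3% of the other peaks. Skewed to other nuclei were 1243 members (13.1%), where 15% of all tested peaks were called and 15.4% of the other peaks. The totals depend on the limit for a myonucleus: at 3.0% of UMIs, 18% of member counts were myonuclear, 1531 members were skewed to myonuclei and 533 to other nuclei. The shares over all and other E14.5 peaks were not computed at that limit. These values therefore cannot be set against the shares above.

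**Figure D1:**
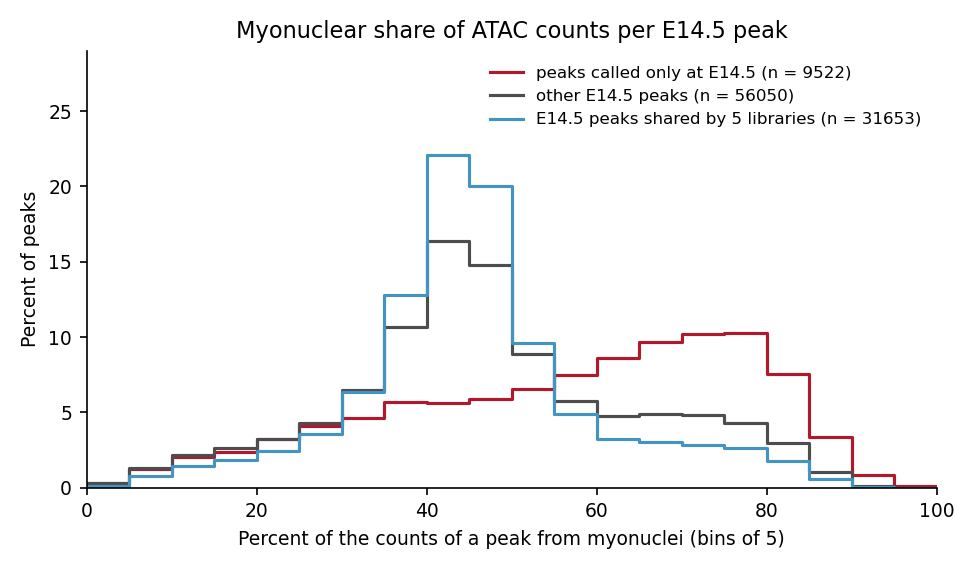
Percent of the counts of a peak that came from myonuclei (x axis, bins of 5 percentage points) against the percent of peaks in each bin (y axis), for the 9522 peaks called only at E14.5, the 56050 other E14.5 peaks and, among these, the 31653 shared by 5 libraries. The members spread broadly around a median of 60.4%, while the other peaks gather around 45.7%.

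The difference was also seen between peaks of like size and place. Among peaks of 80 to 160 counts, 45.8% of 5014 members and 17.2% of 16391 other peaks were skewed to myonuclei, and 12.3% and 25% to other nuclei. Beyond 1 kb of a transcript start the shares skewed to myonuclei were 42.9% of members and 24.3% of other peaks, and within 1 kb 32.7% of 1067 members and 7.18% of other peaks. With the number of other libraries in which a peak was also called, the share skewed to myonuclei was 30.9% for 1, 32.5% for 2, 21.3% for 3 and 11.1% for 4. For members with no peak of another library within 500 bp it was 42.9%, and for the 1141 with such a neighbour 33.1%.

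Private peaks of the other libraries, those called in no library but their own, were counted in the same way. In WT E18.5, 9.19% of 13738 private peaks were skewed to myonuclei against 19.3% of its other peaks, and 39.6% were skewed to other nuclei against 19.6%. The corresponding shares skewed to myonuclei were 11.6% and 17.1% in the Cacna1s KO, 10.9% and 18.8% at P5 and 45.7% and 22.2% in adult muscle. Those skewed to other nuclei were 23.2% and 17.4% in the KO, 30.8% and 21.3% at P5 and 23% and 26.3% in adult muscle. Adult private peaks thus leaned to myonuclei as the E14.5 members did, and those of WT E18.5, P5 and the KO leaned to other nuclei. Private peaks held 5.06% of ATAC counts at E14.5, against 1.48% in the KO, 4.38% in WT E18.5, 1.34% in WT P5 and 10.3% in WT adult muscle.

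Grouping the E14.5 nuclei by RNA alone gave 21 clusters, which uses none of the ATAC counts. Clusters were named by the summed level of fixed marker genes and are called myonuclear-like and so on. Among the 10 leading genes, clusters 0 and 4 (named mesenchymal-like) and 1 (named myonuclear-like) had 0 markers of their own class and 1 of another, Ebf2, Runx2 and Trp63, so values are also given by cluster number. The 4 myonuclear-like clusters had 6.34% (6.32 to 6.36%) of their peak counts in members. Myoblast-like nuclei, the mononucleated cells that fuse into fibers, followed with 5.19% (5.1 to 5.27%). Muscle stem cell-like nuclei had 3.73%, mesenchymal-like 3.9%, neuron-like 4.24%, Schwann cell-like 3.82%, endothelial-like 3.67%, macrophage-like 3.68%, tenocyte-like 3.38% and chondrocyte and osteoblast-like nuclei 3.03%. Within the myogenic lineage the order was thus myonuclei, myoblasts, stem cells, and the intervals of these did not overlap. By number, myonuclear-like clusters 1, 2, 3 and 9 had 6.02 to 6.86% and mesenchymal-like clusters 0, 4, 5 and 7 had 4.04%, 4.06%, 3.42% and 3.91%. The clusters named mesenchymal-like gave 19.3% (19.2 to 19.4%) of member counts and 25% of all peak counts, of which clusters 0 and 4 gave 7.3% and 5.97% of member counts, and with coarser or finer clustering, which leaves other clusters unnamed, they gave 13.5% and 9.73% of member counts.

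**Figure D2:**
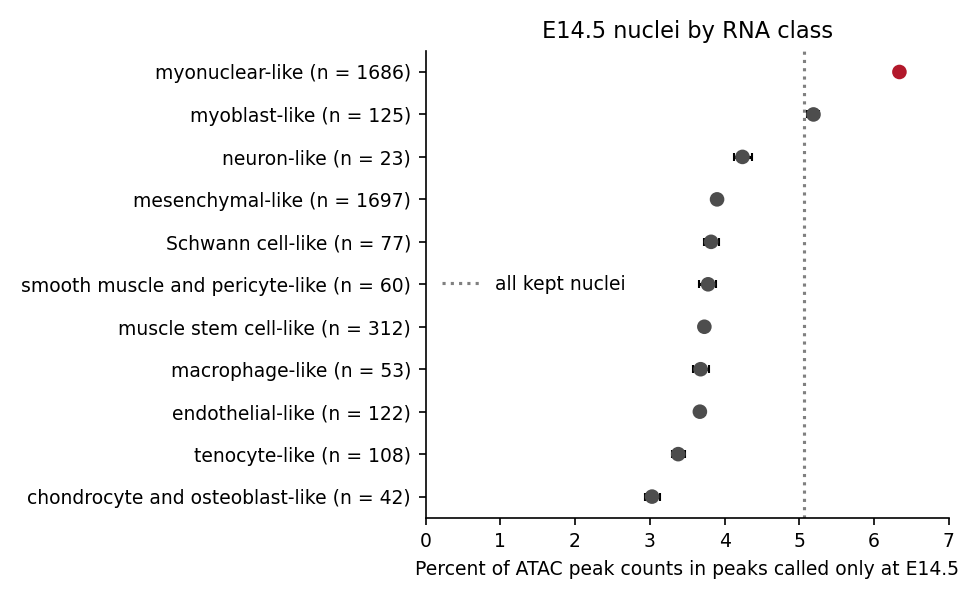
Percent of ATAC peak counts that fell in peaks called only at E14.5 (x axis) for each RNA class of E14.5 nuclei (y axis, with the number of nuclei), with exact 95% intervals for counting error and a dotted line at the value for all kept nuclei. Myonuclear-like nuclei stand at 6.34%, myoblast-like at 5.19%, and the other named classes between 3.03% and 4.24%.

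Clusters 8, 10 and 11 were left without a name because of their leading genes, a choice made after the clusters were seen. By the fixed markers alone they would have been named tenocyte-like (8), myoblast-like (10) and epithelial-like (11). Cluster 10, led by mitochondrial transcripts, had 142 of its 169 nuclei above the myonuclear limit and 5.9% of its counts in members. Clusters 8, led by cell division genes such as Esco2 and Kif11, and 11, led by Wt1, Pax2 and Pax8, genes known from the developing urogenital tract, had 3.59% and 3.93%. The part of these nuclei in the results was not tested beyond the recount without them, in which 61.5% of member counts came from myonuclei.

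Members differed among the myonuclear-like clusters. Cluster 2 was led by Sphkap, Ostn, Corin and Col22a1, a collagen of the myotendinous junction, and had 6.86% (6.82 to 6.9%) of its counts in members, against 6.18% in cluster 1 (Dscaml1, Trp63, Camk2b), 6.02% in cluster 3 (Ky, Pkhd1, Ryr3) and 6.15% in cluster 9 (Myh7b, Barx2, Col25a1). Of 8245 members with at least 20 counts in these clusters, 1359 (16.5%) were at least 2-fold higher in cluster 2 than in the other 3 with the interval past 1, where 6.53% of all E14.5 peaks were called. For cluster 3 it was 708 members (8.59%, all peaks 4.46%), for cluster 9 478 (5.8%, all peaks 3.49%) and for cluster 1 159 (1.93%, all peaks 1.33%). Among peaks of 80 to 160 counts that were skewed to myonuclei, cluster 2 took 28% of members and 15.2% of other peaks. Clusters 3, 9 and 1 took smaller shares of members than of other peaks: 10.5% and 13.3%, 6.54% and 8.35%, and 2.35% and 2.9%.

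The Nlrc5, Trpc6 and Grin3a members below were picked from those with the clearest preference for a single cluster. They are examples of it and lend it no support. An intronic member of Nlrc5 (chr8:94497856-94498766) had 21.1 ATAC CPM in cluster 2, against 0.323 in cluster 1 and 0.365 in cluster 3. A member 29.2 kb from Trpc6, a cation channel gene, had 26.4 ATAC CPM in cluster 2 and 1.29 and 0 in clusters 1 and 3. In cluster 3, a member in an intron of Grin3a, a glutamate receptor subunit, had 14.2 ATAC CPM against 0.97 in cluster 1 and 1.3 in cluster 2. The Slit2 member printed above had 29.3 ATAC CPM in cluster 2, against 9.37 in cluster 1, 2.19 in cluster 3 and 3.59 in cluster 9, and the Kif26b member 31.2, against 17.8, 13.1 and 22.4.

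Among the members with most counts that leaned to myonuclei was the Myh7 start (chr14:54994313-54995239), with 569 counts in myonuclei and 160 in other nuclei, a ratio of 3.87 (3.01 to 5.02) after scaling to the ATAC counts of each class, and 1567 bp to the nearest peak of another library. Myh7 encodes the slow myosin heavy chain, which early fibers use. A member over the Kremen2 start, a Dickkopf receptor gene, had 492 and 174 counts in myonuclei and other nuclei (ratio 3.08, 2.4 to 3.98). At Grtp1 the values were 412 and 77 (5.82, 4.11 to 8.44), and in an intron of Casz1, a zinc finger factor, 472 and 202 (2.54, 2.01 to 3.24) with a peak of another library 89 bp away. At Kctd15, 315 and 455 counts gave no call (0.754, 0.611 to 0.927), nor did 301 and 345 counts at Plekhg2 (0.95, 0.758 to 1.19).

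Leans to myonuclei were wider at some members of fewer counts. One in an intron of L3mbtl4 (chr17:68422373-68423271) had 119 counts in myonuclei and 5 in other nuclei (ratio 25.9, 7.72 to 160), with 10.4 ATAC CPM in myonuclear-like nuclei, 7.38 in myoblast-like and 0.716 in mesenchymal-like nuclei. A member 608 bp from a transcript start near Palmd (chr3:117000194-117001061) had 299 and 32 counts (10.2, 6.06 to 18.3). Palmd RNA in myonuclei was 569 CPM at E14.5, against 180 CPM in the KO, 222 CPM in WT E18.5, 207 CPM at P5 and 37.8 CPM in the adult.

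Members that leaned to other nuclei drew 45.1% (44.7 to 45.5%) of their counts from mesenchymal-like nuclei, 8.13% from muscle stem cell-like and 19.7% from myonuclear-like nuclei. The other E14.5 peaks with the same call had 42.3%, 9.5% and 21.1%. Near Fbln1, a matrix glycoprotein gene, a member (chr15:85188017-85188878) had 3 counts in myonuclei and 114 in other nuclei, 34.9-fold lower in myonuclei (at least 7.82-fold by the interval), with 81 of its counts in mesenchymal-like nuclei. An intronic member of Filip1l had 10 and 165 counts (15.2-fold lower, 6.24 to 47.9). The Bmp2 member printed above, 196 kb from the gene row of this bone morphogenetic protein, had 2 and 82 counts (37.7-fold lower), 64 of them in mesenchymal-like nuclei. A member near Col3a1, a fibrillar collagen gene, had 4 and 88 counts (20.2-fold lower, 5.27 to 172).

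E-box and MEF2 matches differed between members open in myonuclei and in other nuclei, as they did among other E14.5 peaks. In 300-base windows beyond 1 kb of a start, CAGCTG was found on either strand in 46.6% of 8452 members and 40.8% of 36519 other peaks (36.6% of all E14.5 peaks). Shares over all E14.5 peaks, here and below, also cover peaks within 1 kb of a start. CAGCTG was in 61% of the members skewed to myonuclei and 22.3% of those skewed to other nuclei, and the other E14.5 peaks split likewise (63.9% and 29.9%). MEF2 matches (CTATTTATA or CTAAAAATA) were in 3.21% of members and 2.57% of other peaks, or 5.35% and 1.1% of members skewed to myonuclei and to other nuclei (other peaks with these calls 6.37% and 0.691%). Both motifs together were in 95 of 3626 members skewed to myonuclei (2.62%) and in 0 of 1094 skewed to other nuclei, against 3.05% and 0.105% of the other peaks with these calls and 0.875% of all E14.5 peaks. Some motifs had close shares in members skewed to myonuclei and to other nuclei, among them the homeodomain (8.38% and 8.32%), RUNX (7.03% and 7.04%) and FOX (3.39% and 3.2%) patterns.

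Several letter patterns differed between members and other peaks beyond 1 kb. The values for all E14.5 peaks also cover peaks within 1 kb of a start, so they are not a like baseline. More frequent in members were CATATG (Twist-type, 7.74% and 5.58%; all E14.5 peaks 4.71%), TAATTA (homeodomain, 8.21% and 5.99%; all 5.08%), TGATTTA (HOX and PBX, 5.95% and 4.35%; all 3.66%) and ACAAAG or ACAATG (SOX, 35.9% and 31.5%; all 28%). Less frequent were GGGCGGG (KLF and SP, 3.61% and 6.6%; all 16.8%), GGGGCCC (PLAG1, 2.86% and 4.69%; all 6.33%), CCGGAAG (ETS, 1.29% and 2.08%; all 5.1%), TGACTCA or TGAGTCA (AP-1, 5.77% and 7.72%; all 6.16%), the NFI palindrome (0.58% and 0.98%; all 0.895%) and the CTCF core (0.272% and 2.05%; all 1.36%). The remaining patterns differed less: GGAATG (TEAD) was in 23.6% of members and 22.2% of other peaks, TGTGGTT (RUNX) in 7.32% and 6.52%, TGCTGAC (MAF) in 6.27% and 7.03%, TGTTTAC (FOX) in 3.53% and 3.77%, CTTTGATG or CTTTGAAG (LEF and TCF) in 2.78% and 3.08%, and the EBF site in 1.69% and 1.51%. The nuclear receptor repeat was in 0.0237% and 0.0192%. TGATTTA was found in 9.51% of members skewed to other nuclei and 4.91% of those skewed to myonuclei (other peaks with these calls 6.28% and 4.04%). Windows beyond 1 kb averaged 46.7% GC in members and 49.9% in other peaks, and the part of base composition in these shares was not tested.

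**Figure D3:**
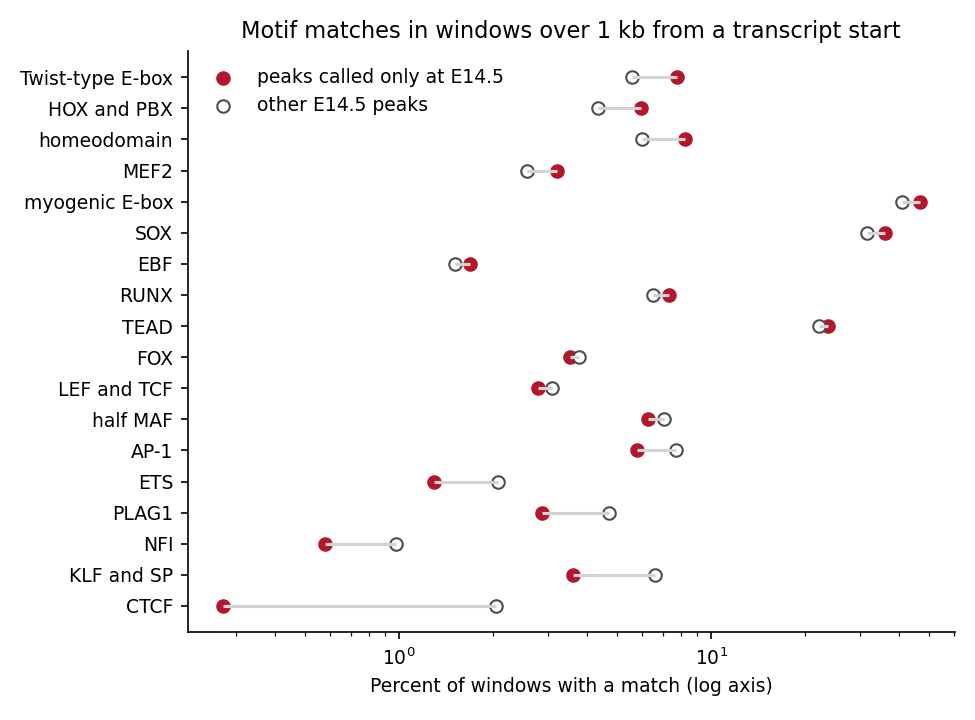
Percent of 300-base windows over 1 kb from a transcript start with at least 1 match on either strand (x axis, log scale) for 18 of the 19 motifs searched (y axis, ordered by the ratio of both shares), in peaks called only at E14.5 (filled) and other E14.5 peaks (open). The widest gap is at CTCF, 0.272% and 2.05%.

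RNA levels of the nearest genes, which did not enter the choice of members, were then read at the nearest gene rows. RNA entered only through the UMI limits on nuclei and the split by Ttn, Neb, Trdn and Ryr1. Members lay nearest to 6406 genes, 19.9% of the 32272 gene rows with a position, of which 4470 had 1 member, 1269 had 2 and 119 had 5 or more. In myonuclei, 707 of 3693 measured nearest genes (19.1%) were at least 2-fold higher at E14.5 than in WT E18.5, where 10.3% of all measured genes were. Lower by 2-fold were 510 (13.8%), where 17.7% of all genes were. The median log2 ratio was 0.089 over nearest genes and -0.167 over all genes. Relative to that shift of all genes the nearest genes had a median of 0.256, and 838 (22.7%) were 2-fold higher. The share of all genes was not computed on that scale. In other nuclei, 683 of 3939 nearest genes (17.3%) were 2-fold higher, where 12.1% of all genes were, 276 (7.01%) were lower, where 8.68% were, and the medians were 0.124 and 0.022. With at least 100 UMIs required, 384 of 3121 (12.3%) were higher in other nuclei and 481 of 2818 (17.1%) in myonuclei. The share of all genes was not computed at that limit. Nearest genes of peaks private to WT E18.5 were also 2-fold higher at E14.5 more often than all genes. At the limit of 20 UMIs their shares were 15.2% of 4501 in myonuclei and 15.8% of 4931 in other nuclei. The summed 12 mesenchymal markers stood at 983.6 CPM in E14.5 myonuclei and 2179 CPM in WT E18.5 myonuclei, and the 6 epithelial markers at 786.2 and 281.6 CPM, with 6 and 3 of the 6 detected. In other nuclei the mesenchymal markers stood at 4288 CPM at E14.5 and 9242 CPM in WT E18.5, and the 8 macrophage markers at 99.79 and 601.8 CPM. The epithelial markers were lower in other nuclei than in myonuclei, at 80.47 and 7.9 CPM. They include Trp63, a leading gene of myonuclear-like cluster 1. The part of these markers in the counts was not tested.

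In myonuclei the share differed with the nuclei in which the member was open. Nearest genes of members skewed to myonuclei were 2-fold higher in E14.5 myonuclei in 23.4% of 1934 cases (median 0.228), and of members skewed to other nuclei in 16.8% of 548 (median -0.013). In other nuclei the same sets had close shares, with 18.9% (median 0.164) for members skewed to myonuclei and 19.8% (median 0.178) for members skewed to other nuclei. Distance did not order the shares: for members skewed to myonuclei 29.2% of 312 genes were higher in myonuclei within 1 kb and 28.3% of 583 beyond 50 kb, and over all members 24.5% within 1 kb, 17.7% at 1 to 50 kb and 25.5% beyond 50 kb. Within the E14.5 library, nearest genes of members skewed to myonuclei had a median log2 ratio of myonuclei over other nuclei of -0.071, those of members skewed to other nuclei -1.12 and all genes -0.518. By the same 2-fold limit 24.7% of the first set and 7.01% of the second were higher in myonuclei, where 10.6% of all genes were, and 21.7% and 53.3% were lower, where 31.1% were. Against the adult, 53.5% of nearest genes and 42.4% of all genes were 2-fold higher in E14.5 myonuclei. For nearest genes of private peaks the same share was 49.5% for WT E18.5, 48.6% for P5, 49.5% for the KO and 36.2% for the adult.

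Genes with several members stood further out. In myonuclei, 7.47% of genes with no member were 2-fold higher at E14.5 than in WT E18.5, 15.4% of those with 1, 21.5% with 2, 31.5% with 3 to 4 and 53.8% of the 93 measured genes with 5 or more, whose median log2 ratio was 1.108. In other nuclei the shares were 10.6%, 14.7%, 18.9%, 27.7% and 39.6%. Peaks private to WT E18.5 gave 8.22%, 12.8%, 17.2%, 21.1% and 19.5% in myonuclei for the same steps. In other nuclei they gave 10.6%, 15.1%, 15.9%, 18.1% and 17.9%. Gene rows up to 10 kb wide gave 61.4% of 44 genes in myonuclei at 5 or more members. Genes with many peaks are often long, and gene length was not tested.

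**Figure D4:**
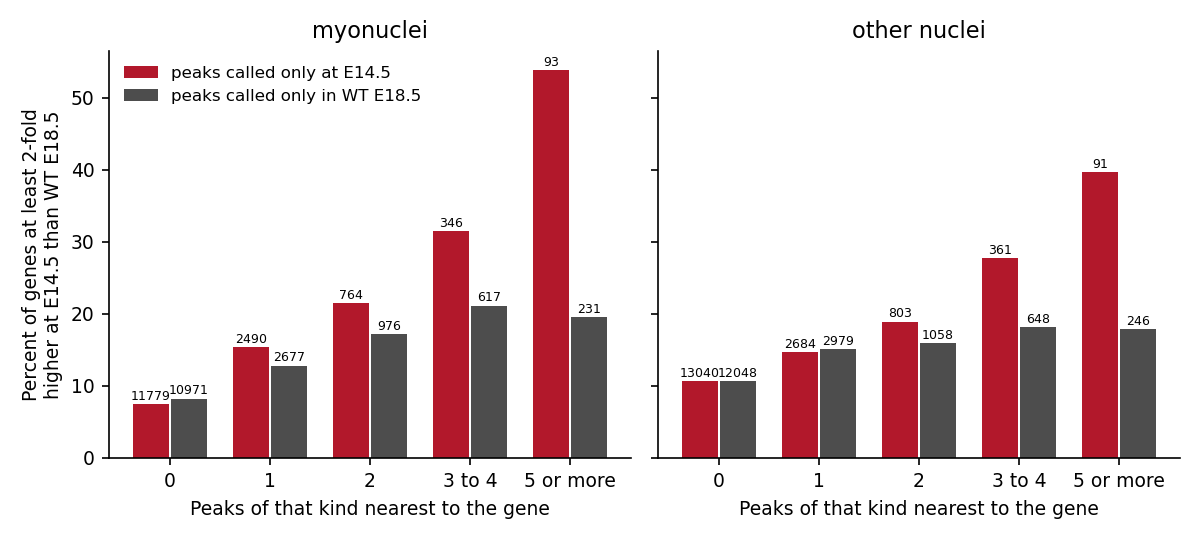
Percent of measured genes that were at least 2-fold higher at E14.5 than in WT E18.5 (y axis) by the number of peaks nearest to them (x axis), for peaks called only at E14.5 (red) and peaks called only in WT E18.5 (grey), in myonuclei (left) and other nuclei (right), with the number of measured genes above each bar. In myonuclei the red bars climb to 53.8%, while the grey bars stay at or below 21.1%.

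Members lay near each other slightly more often than other peaks lay near members. Another member lay within 10 kb of 16.1% of members, and a member lay within 10 kb of 11% of other E14.5 peaks, and within 50 kb the values were 46.7% and 41.6%. Counting each member for only 1 nearest gene (24 members have more than 1 at the same distance), 664 genes had 3 or more members, against 667 otherwise. Of the 664, 411 had members skewed to myonuclei and none to other nuclei, 64 the reverse, 135 both and 54 neither. Over all members 41.7% were skewed to myonuclei and 13.1% to other nuclei. Other E14.5 peaks were not grouped by gene, so whether the calls agree within genes was not tested. Kalrn, a guanine nucleotide exchange factor gene, had 14 members in 399 kb, of which 6 were skewed to myonuclei and 0 to other nuclei. The splicing factor gene Rbfox1 had 12 (9 and 0), the transcription activator gene Camta1 11 (8 and 0) and the scaffold gene Grip1 10 (6 and 0). Zfhx3, a homeodomain and zinc finger factor of mesenchyme and neurons, had 10, of which 2 were skewed to myonuclei and 4 to other nuclei. The 17 members counted for Fgfr2 spread over 2880 kb because its row in the files is 2860 kb wide, and 8 were skewed to myonuclei and 3 to other nuclei.

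Grip1 RNA in myonuclei stood at 4260 CPM at E14.5, against 1190 CPM in the KO, 1070 CPM in WT E18.5, 154 CPM at P5 and 0.908 CPM in the adult. Kalrn had 287 CPM at E14.5, against 91.7 CPM in the KO, 98.3 CPM in WT E18.5, 124 CPM at P5 and 79.1 CPM in the adult. For Rbfox1 (1800 CPM at E14.5 and 1520 CPM in WT E18.5) and Camta1 (300 and 353 CPM) the levels were close or in the other order, although most of their members were skewed to myonuclei. Rbfox1 in other nuclei was 336 CPM at E14.5 and 76.8 CPM in WT E18.5.

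Kif26b, a kinesin family gene, had 9 members in 300 kb. Their counts in myonuclei and other nuclei were 216 and 44 in the strongest (ratio 5.34, 3.36 to 8.88), 161 and 27 in the next (6.49, 3.62 to 12.6), and 138 and 28, 104 and 45, and 99 and 28 in 3 more with the same call. A sixth, 1.33 kb from the gene row, leaned to other nuclei with 38 and 83 counts. Kif26b RNA was 579 CPM in E14.5 myonuclei, against 32.4 CPM in the KO, 44.5 CPM in WT E18.5, 18.1 CPM at P5 and 40.7 CPM in the adult, and 238 CPM in E14.5 other nuclei against 10.7 CPM in those of WT E18.5 (ratios 13, 11.9 to 14.2, and 22.2, 19.1 to 25.9).

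Fstl4, a follistatin-like gene, had 6 members, 5 of them skewed to myonuclei. The strongest (chr11:52648010-52648736, 116 kb from the gene row) had 139 and 69 counts, and its neighbour printed above 149 and 37 (ratio 4.38, 2.61 to 7.74), with 25.8 ATAC CPM in myoblast-like nuclei, 13.5 in myonuclear-like and 2.33 in mesenchymal-like nuclei. Fstl4 RNA in myonuclei was 266 CPM at E14.5, against 29.3 CPM in the KO, 9.25 CPM in WT E18.5, 2.33 CPM at P5 and 0.656 CPM in the adult. Tmem108, a transmembrane protein gene, had 2 members, with 148 and 84 counts (neither call) and 121 and 33 counts (3.99, 2.29 to 7.35). Its RNA was 1020 CPM at E14.5, against 128 CPM in the KO, 95.9 CPM in WT E18.5, 6.92 CPM at P5 and 0.707 CPM in the adult. Of the 9 developmental muscle genes taken from the study, 4 had a member (Myh8, Col25a1, Fstl4 and Tmem108), beside 19.9% of all gene rows. In myonuclei 3 of 9 were 2-fold higher and 1 lower at E14.5, beside 10.3% and 17.7% of all genes. The study chose these genes on these samples. Of its 5 mature fast fiber genes 0 had a member, and all 5 were 2-fold lower at E14.5, beside the same shares of gene rows and genes. Lists this short give only coarse shares.

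Among nearest genes with at least 100 UMIs, the following had the highest E14.5 over WT E18.5 ratios in myonuclei. Dner, which encodes a transmembrane protein with EGF repeats, had 278 CPM at E14.5, against 27.3 CPM in the KO, 7.67 CPM in WT E18.5, 3.94 CPM at P5 and 0.353 CPM in the adult (E14.5 over WT E18.5, 36.3-fold, 29.6 to 44.9). Gja5, which encodes a connexin, had 6 members, all skewed to myonuclei, and 151 CPM at E14.5, against 6.21 CPM in the KO, 4.66 CPM in WT E18.5, 1.21 CPM at P5 and 0.404 CPM in the adult. Dpp10, an auxiliary subunit gene of potassium channels, had 8 members, 7 of them skewed to myonuclei, with 147 CPM at E14.5 and 4.19 CPM in WT E18.5. Cacna1b, the pore subunit gene of N-type calcium channels, had 113 CPM at E14.5 and 3.79 CPM in WT E18.5. In the same order of groups, E14.5 and WT E18.5, Sphkap, a kinase anchor gene, had 114 and 3.16 CPM, Kremen2 39.9 and 0.711 CPM and Zfp804a, a zinc finger gene, 41.2 and 0.474 CPM. Cytip, an adaptor gene of leukocytes, had 23.3 CPM at E14.5 and no UMI in WT E18.5, at least 98.1-fold higher with a floor of 3 counts in that sum.

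**Figure D5:**
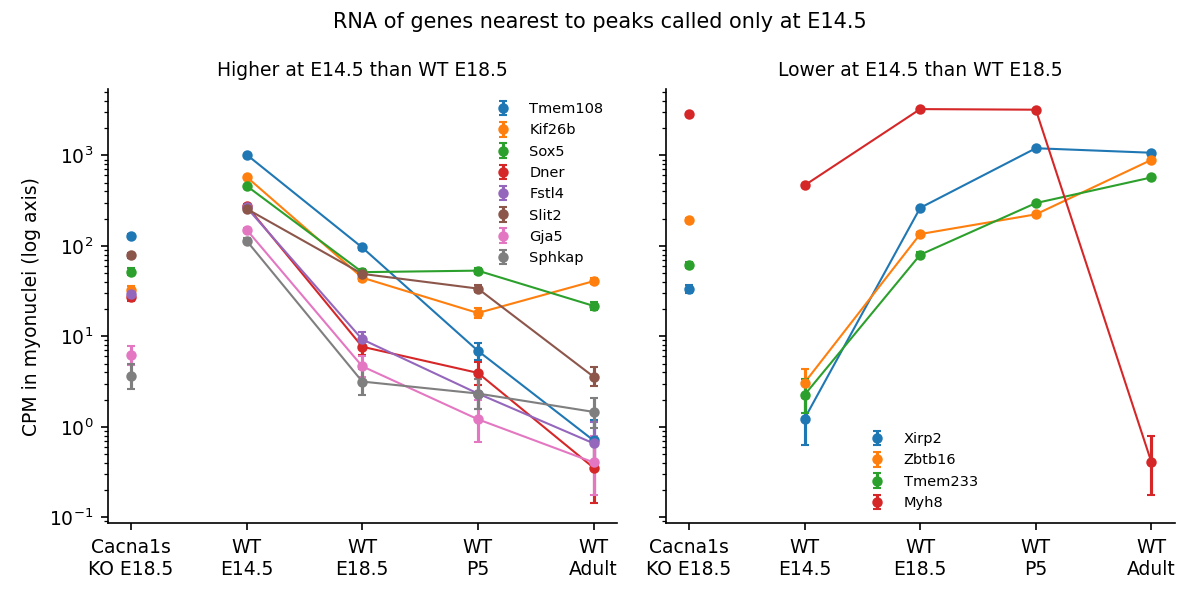
RNA in CPM (y axis, log scale) in myonuclei of the Cacna1s KO E18.5, WT E14.5, WT E18.5, WT P5 and WT adult libraries (x axis), for 8 nearest genes higher (left) and 4 lower (right) at E14.5 than in WT E18.5, with exact 95% intervals for counting error and lines joining the WT stages. Tmem108 stands at 1020 CPM at E14.5 and 0.707 CPM in the adult, Xirp2 at 1.23 and 1070 CPM.

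A member nearby did not always go with more RNA. Xirp2, an actin-binding gene of mature fibers, had 1 member, skewed to neither class, and 1.23 CPM in E14.5 myonuclei, against 33.3 CPM in the KO, 263 CPM in WT E18.5, 1200 CPM at P5 and 1070 CPM in the adult. Zbtb16, a transcription factor gene, had 3.07 CPM at E14.5 and 135 CPM in WT E18.5, and Tmem233, whose member was skewed to myonuclei, 2.25 CPM at E14.5 and 79.7 CPM in WT E18.5. The fetal myosin gene Myh8 had a member within 1 kb of its start (154 and 57 counts in myonuclei and other nuclei, ratio 2.94, 1.89 to 4.69), although its RNA in myonuclei was 466 CPM at E14.5 and 3250 CPM in WT E18.5. The desmosome gene Pkp1 had 0.205 CPM at E14.5 and 7.83 CPM in WT E18.5.

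In other nuclei, the nearest genes highest at E14.5 over WT E18.5 were Spock1, a proteoglycan gene (15.5 and 0.232 CPM), Wt1 (24.6 and 0.755 CPM), Ralyl (70.8 and 2.44 CPM), Dpp10 (60.8 and 2.61 CPM), Kif26b, Caln1 (27.9 and 1.34 CPM), March11 (18.7 and 0.929 CPM) and Nrg3, a neuregulin (90.5 and 4.7 CPM). Only Kif26b among them had a member skewed to other nuclei. The members of Wt1 (51 and 21 counts in myonuclei and other nuclei) and Ralyl (65 and 22), and all those of March11, were skewed to myonuclei. The Caln1 and Nrg3 members had neither call. Wt1 leads cluster 11 of the E14.5 nuclei, and the part of that cluster was not tested gene by gene. Among the lowest were Clec3b (3.26 and 66 CPM), Mfap5 (9.22 and 95.4 CPM), Fmod (3.5 and 35.6 CPM) and Fndc1 (55 and 474 CPM).

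The gene list with the largest share near members was axon guidance and adhesion, the ligands and receptors that steer nerve growth and cell contact. Of its 29 genes 20 (69%) were nearest to a member, beside 19.9% of all gene rows, with 50 members in all. In myonuclei 13 of 29 were 2-fold higher and 3 lower at E14.5 (median log2 0.67), beside 10.3% and 17.7% of all genes, and in other nuclei 12 and 0 (median 0.84), beside 12.1% and 8.68%. Slit2, a ligand of Robo receptors, had 2 members, 683 and 845 kb from its row, with 129 and 16, and 63 and 13 counts in myonuclei and other nuclei. Its RNA was 257 CPM in E14.5 myonuclei, against 78.9 CPM in the KO, 49 CPM in WT E18.5, 33.7 CPM at P5 and 3.58 CPM in the adult. The ephrin gene Efna5 had 8 members, of which 3 were skewed to myonuclei and 2 to other nuclei, and 374 CPM in E14.5 myonuclei against 95.9 CPM in WT E18.5. Cdh11, a cadherin, had 6 members, with 566 CPM in E14.5 myonuclei against 82.8 CPM in WT E18.5. The semaphorin receptor gene Plxna2 had 3 members skewed to myonuclei and 1 to other nuclei, with 422 CPM in E14.5 myonuclei against 170 CPM in WT E18.5.

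Among 16 myogenic factors 8 had a member, beside 19.9% of all gene rows. In myonuclei 2 of 16 were 2-fold higher and 4 lower, near the 10.3% and 17.7% of all genes. The MEF2 family gene Mef2c had 2 members skewed to myonuclei (87 and 28 counts, ratio 3.38, 1.82 to 6.69, and 62 and 11 counts, 6.13, 2.45 to 19), and 5500 CPM at E14.5 against 3300 CPM in WT E18.5. Myf5 and Myod1 stood at 13.9 and 29.4 CPM at E14.5, against 5.45 and 15.2 CPM in WT E18.5. Eya1, a transcription cofactor, had 1 member that leaned to other nuclei (8 and 78 counts) and 1 of neither call.

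Of 32 limb patterning factors 10 had a member, beside 19.9% of all gene rows, and 9 of 29 measured were 2-fold higher in other nuclei at E14.5 (median log2 0.66) and 1 lower, beside 12.1% and 8.68% of all genes. Both members of Shox2, a homeodomain gene of the proximal limb, leaned to other nuclei, with 13 and 61, and 10 and 47 counts. In the signalling list 11 of 26 genes had a member, in the cartilage and bone list 11 of 19 and in the mesenchyme and tendon list 10 of 21, against the same 19.9%. In other nuclei the 2-fold higher and lower genes were 4 and 1 of 25 measured in the signalling list, 4 and 1 of 17 in the cartilage and bone list and 1 and 6 of 21 in the mesenchyme and tendon list. In myonuclei they were 1 and 8 of 24, 2 and 2 of 13 and 0 and 12 of 21 for these lists. For the limb patterning factors they were 1 and 6 of 23 in myonuclei, where 10.3% and 17.7% of all genes were higher and lower. Wnt5a had a member at its start with 41 and 121 counts (2.71-fold lower in myonuclei) and 63.7 CPM in E14.5 other nuclei against 35.7 CPM in WT E18.5. Sox5, a chondrogenic factor also present in muscle, had 2 members of neither call and 461 CPM in E14.5 myonuclei against 51.2 CPM in WT E18.5. Runx2, the osteoblast factor, had 3 of 4 members skewed to myonuclei, of which 2 lie in introns of its neighbour Supt3 alone, and RNA of 28.8 CPM in E14.5 myonuclei against 20.3 CPM in WT E18.5.

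The study's embryonic factors were split. Etv5 had 1 member, with 87 and 35 counts (ratio 2.71, 1.52 to 5.02), and Elk3 had 2, with 162 and 62 and with 81 and 42 counts, all 3 skewed to myonuclei, while Sox4 and Plag1 had none. So 2 of the 4 had a member, beside 19.9% of all gene rows. In myonuclei 1 of the 4 was 2-fold higher at E14.5, beside 10.3% of all genes. Hmga2, a chromatin protein gene of embryonic growth, had a member near its start with 150 and 252 counts and an intronic member with 126 and 47, and RNA of 556 CPM in E14.5 other nuclei against 155 CPM in WT E18.5. The imprinted growth genes had a member at 4 of 18, the cell cycle genes at 6 of 16, the blood and erythroid genes at 2 of 10 and the neural and glial genes at 2 of 12, beside 19.9% over all gene rows.

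The nearest genes of members were partly those of private peaks of other libraries. Of the 6406 genes, 48.7% were also nearest to a peak private to WT E18.5 (38.9% of that library's 8022 genes), where 24.9% of all gene rows were. The shares were 20% for P5 (42.6% of 3003, all gene rows 9.31%), 50.8% for the adult (32.4% of 10056, all gene rows 31.2%) and 18.3% for the KO (42.4% of 2764, all gene rows 8.56%).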

How the data were processed

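Nuclear RNA and ATAC counts were measured in 5 libraries, 1 per group. The authors made the deposited counts with Cell Ranger ARC 2.0.0 on mm10 (GRCm38, Ensembl release 93), with intronic reads included and peaks called per library, so each library is counted only in its own peaks. ATAC values are mostly even, 2 per fragment, so intervals were computed on counts divided by 2. Nuclei of 400 to 25000 UMIs were kept. No doublet caller was run, and doublets were not removed here.

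Peaks were members when they overlapped no peak of the other 4 libraries (0 bp) and held at least 20 counts. The members and gene lists were chosen with earlier results of these data known. Ratios between nuclei classes were scaled to the ATAC counts of each class, with exact conditional binomial intervals, and shares have Clopper-Pearson intervals, all at 95%. No test between groups was possible with 1 library per group. RNA was summed per class and scaled to CPM, and a gene was compared when its pair of sums held 20 UMIs or more. Nuclei were clustered on RNA with scanpy 1.11.5 and leidenalg 0.10.2 (2000 variable genes, 30 components, 20 neighbours, resolution 1). Clusters were named from fixed markers, and those led by mitochondrial, cell division or urogenital tract genes were left without a name. The nearest gene is the nearest gene row of the files, which spans the annotated starts of a gene and can be wide. Promoters, exons and introns came from GENCODE M21, and sequence from the RefSeq copy of GRCm38. Each of 19 motifs was searched on both strands of the central 300 bp of a peak.

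Genes and members were named by a rule: the 20 members with most counts, those with the clearest ratios between nuclei classes, the 10 genes with most members, nearest genes on the lists, and the nearest genes of at least 100 UMIs with the highest and lowest RNA ratios. Members and genes preferring single myonuclear clusters, the band of 80 to 160 counts, the number of members per gene, transcript starts, gene rows of at most 10 kb and the recount without unnamed clusters were chosen after seeing the data. The leading genes that left clusters without a name were also chosen after the clusters were seen.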

Additional observations from a re-analysis of the deposited data

How the results depend on the processing

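Of 77 values recomputed under 19 settings, 60 stayed within their counting error or within 1.5 times the reported count, and 17 moved further. A change of direction could be recorded only for the median log2 RNA ratios, and 0 of these changed sign. The myonuclear percent of member counts (59.8%) was 60% with a minimum of 40 counts, 60.3% with no peak of another library within 500 bp, 58.6% over all listed barcodes, 66.5% and 18% with myonuclei set at 1.0% and 3.0% of UMIs, and 61.5% without the unnamed clusters. At 3.0% of UMIs, 1531 members were skewed to myonuclei and 533 to other nuclei, with no share over all E14.5 peaks computed at that limit. Members within 1 kb of a gene row made up 14.9%, against 13.1% with no other peak within 500 bp and 11.2% by annotated transcript starts. The median log2 RNA ratio of nearest genes was 0.256 in myonuclei and 0.102 in other nuclei after scaling to the median of all genes. With a minimum of 100 UMIs it was 0.091 in other nuclei, where 384 of 3121 genes (12.3%) were 2-fold higher. The mesenchymal-like percent of member counts was 19.1% with no other peak within 500 bp, and 13.5% and 9.73% at Leiden resolutions of 0.6 and 1.5. Requiring absence from the 3 other WT libraries only gave 10844 peaks. No paired analysis was possible because each group had 1 library. Intervals cover counting error only, and differences in depth between libraries limit what the absence of a peak call can show.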
